A study of Mus musculus with 18 samples.

Results

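The MHC class I presentation genes H2-K1, H2-D1, H2-Q7, B2m, Tap1, Tap2, Tapbp, Psmb8, Psmb9 and Nlrc5 were followed in mouse double negative T cells given purinergic ligands. They were taken by name, after Ensembl identifiers had been matched to mouse symbols, and are 10 of the 52506 genes listed in all 3 deposited count tables. All 10 passed the filter on low counts in every comparison, and their lowest count in any library was 564 (Nlrc5, in an R library).

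Class I molecules show fragments of proteins made inside a cell to CD8+ T cells and natural killer cells. Proteasomes cut the proteins, the TAP transporter moves the peptides into the endoplasmic reticulum, and a loading complex places them on a heavy chain paired with beta-2 microglobulin. T cells themselves carry class I, and interferon gamma, the transactivator NLRC5 and NF-kappaB are known to raise its genes.

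RNA sequencing covered 18 libraries, 3 in each of 6 groups, in 3 tables of 6 libraries. The cells were wild type CD4+ T cells from spleen and lymph node that had been converted to double negative T cells, which lack CD4 and CD8. Cells of all 6 groups were stimulated with antibodies to CD3 and CD28, so none of the groups is a resting control. The first table held WT libraries without ligand and WTATPgs libraries with 400 µM ATPgs, described as an ATP analogue that cannot be hydrolysed, for 6 h. The second held DNT libraries without ligand and ADO libraries with 400 µM adenosine for 6 h. In the third, R libraries had 250 nM of a compound labelled as inhibiting A2aR, the A2a adenosine receptor, and RA libraries had the inhibitor with 400 µM adenosine for 6 h. Total counts per library ran from 20156082 to 24331577. Whether the 3 libraries of each group are separate cultures or animals is not stated in the labels, and the p-values therefore cover only library-to-library spread, which may be technical. Since RNA came from bulk cells, fewer cells of a type and less RNA per cell cannot be told apart.

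Checks of the libraries bear on several results below. T cell markers, 12 in number, summed to between 3091 and 4591 CPM (read counts divided by library size, on a common scale) in every library, whereas Cd4 averaged 0.41 to 9.32 CPM and Cd8a 5.66 to 23.5 CPM over the groups. Cd8b1, also on the coreceptor list, was higher in every ADO library than in any DNT library, whereas Cd4 and Cd8a were lower. In WTATPgs, replicate 3 stood apart: the chi-square per degree of freedom between libraries was 25.4 and 25.5 with it, and 1.65 between replicates 1 and 2. R libraries differed more, at 43.8, 89.5 and 209, and their ribosomal protein genes took 12.8%, 10.4% and 15.8% of counts in replicates 1, 2 and 3. The same share was 11.6% to 12.4% in RA and 4.71% to 5.37% in the other groups. Fitted over all genes, replicate variation (the common biological coefficient of variation) came to 10.6% for ATPgs, 2.74% for adenosine and 19.6% for the inhibitor table.

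On GRCm38, with GENCODE M21, 8 of the 10 genes lie on chromosome 17. From low to high coordinate these are Tapbp (chr17:33915899-33929292, plus strand), H2-K1 (chr17:33996017-34000347, minus), Psmb9 (chr17:34181987-34187764, minus), Tap1 (chr17:34187553-34197225, plus), Psmb8 (chr17:34197721-34201454, plus), Tap2 (chr17:34203527-34216321, plus), H2-D1 (chr17:35262730-35267499, plus) and H2-Q7 (chr17:35439155-35443773, plus). B2m lies at chr2:122147686-122153083 and Nlrc5 at chr8:94434356-94527272, both on the plus strand. Counting near-identical or overlapping genes can misplace reads. Of the 50-base stretches in the exons of H2-Q7, 26.4% also occur in another gene, chiefly H2-Q10 (14%) and H2-Q5 (8.74%). For H2-D1 the share was 12.8% and for H2-K1 9.63%, whereas it was at most 2.87% for the other 7. B2m lies inside Patl2 on the opposite strand, and Tap1 and Psmb9 overlap by 212 bases on opposite strands. Tapbp overlaps the protein-coding gene Zbtb22 by 3422 bases on the same strand. Tapbp, Tap2, Psmb8 and Nlrc5 also overlap noncoding genes. How the authors treated reads with several matches and strand is not given in the sources used here, so the split among heavy chain copies is uncertain.

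Upstream sequences are shown because the members moved together under adenosine, and because textbook class I promoters carry a shared run of boxes, a kappaB element, an interferon-response element, an X box with a CRE-type core and an inverted CCAAT (Y box). RefSeq promoters for GRCm38.p6 had an entry for 8 of the 10 members, and Nlrc5 and Tap2 had none. For H2-D1, Tap1, Psmb9, Tapbp and Psmb8, exons annotated in GENCODE M21 cover the whole upstream window, so it is not printed in full. The stretches below run 5′ to 3′ toward the gene. Capitals mark the kappaB-type letters (GGG and TTCCC with 2 bases between), the interferon-type letters AANNGAAA or their reverse complement, TGACG, and CCAAT or its reverse complement ATTGG. Both strands were searched and no marked stretches overlapped in these windows.
H2-K1, chr17:34000348-34000597, minus strand: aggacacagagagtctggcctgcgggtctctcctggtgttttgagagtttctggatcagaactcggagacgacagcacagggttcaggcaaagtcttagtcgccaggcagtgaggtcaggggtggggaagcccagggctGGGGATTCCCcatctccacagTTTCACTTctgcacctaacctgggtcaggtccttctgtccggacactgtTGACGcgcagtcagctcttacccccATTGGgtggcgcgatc
H2-Q7, chr17:35438905-35439154, plus strand: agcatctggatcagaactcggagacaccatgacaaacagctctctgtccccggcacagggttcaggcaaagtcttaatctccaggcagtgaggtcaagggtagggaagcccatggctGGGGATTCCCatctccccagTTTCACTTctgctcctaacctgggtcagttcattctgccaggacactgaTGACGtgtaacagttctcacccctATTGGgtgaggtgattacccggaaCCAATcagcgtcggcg
B2m, chr2:122147437-122147685, plus strand: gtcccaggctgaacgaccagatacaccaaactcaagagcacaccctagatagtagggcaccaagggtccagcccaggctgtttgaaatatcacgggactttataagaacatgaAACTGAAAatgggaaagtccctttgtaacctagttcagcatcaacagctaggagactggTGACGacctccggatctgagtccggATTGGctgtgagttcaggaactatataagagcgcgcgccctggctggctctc

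H2-K1 and H2-Q7 shared the order kappaB, interferon type, TGACG and ATTGG, and B2m held the last 3 of these. The stretch from TGACG to ATTGG is set out for the 4 genes that had it, so that its spacing can be read. That of H2-D1 lies within an annotated exon of H2-D1 itself.
H2-K1, chr17:34000359-34000388: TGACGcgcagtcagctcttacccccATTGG
H2-D1, chr17:35262993-35263022: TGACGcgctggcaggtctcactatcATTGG
H2-Q7, chr17:35439091-35439119: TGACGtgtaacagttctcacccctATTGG
B2m, chr2:122147609-122147638: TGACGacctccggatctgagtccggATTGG
Between the boxes lay 20 bases in H2-K1, H2-D1 and B2m and 19 in H2-Q7. TGACG followed by ATTGG after 19 or 20 bases, on either strand, occurred in 0.13% of the 32817 RefSeq promoters (42 promoters, 250 bases upstream of the start). The kappaB-type letters were present in 3 of the 8 members (H2-K1, H2-D1, H2-Q7) and in 1.54% of all promoters. AANNGAAA was present in 4 members and 21.3% of promoters, TGACG in 6 members and 17.75%, and CCAAT in 7 members and 33.83%. Tap1 and Psmb9 were counted separately, although both hold the same TGACG site and the same CCAAT site. Psmb8 had none of these letters in its window and was the only member with TTCNNNGAA, the letters of an interferon gamma-activated site, found in 7.01% of promoters.

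Tap1 and Psmb9 point away from each other, with 225 bases between their RefSeq first transcribed bases, and so share upstream sequence. The single TGACG between them, within an annotated exon of Psmb9, is shown with its flanks on the Tap1 strand.
Tap1, chr17:34187458-34187487: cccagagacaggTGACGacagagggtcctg
These matches describe letters only. The motifs were picked after the sequences had been read, binding was not measured, and no match in a window says nothing about a factor.

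Levels are given as CPM, scaled by trimmed mean of M-values (TMM) factors within a table. Divided by exon length in kilobases, B2m was the most abundant member in all 6 groups, with means of 2483 (DNT) to 4636 (R) CPM per kb. H2-K1 and H2-D1, the classical heavy chains, followed at 679 to 957 and 687 to 1015 CPM per kb. H2-Q7, a nonclassical heavy chain of the Qa-2 group, stood between 73.8 and 166 CPM per kb. Below it came the loading and transport genes: Tapbp at 29.9 to 116, Tap1 at 19.2 to 78.9 and Tap2 at 10.4 to 28.0 CPM per kb. The immunoproteasome subunits Psmb8 and Psmb9 had 13.2 to 29.0 and 14.3 to 29.4 CPM per kb, and Nlrc5 4.56 to 32.6 CPM per kb.

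**Figure D1:**
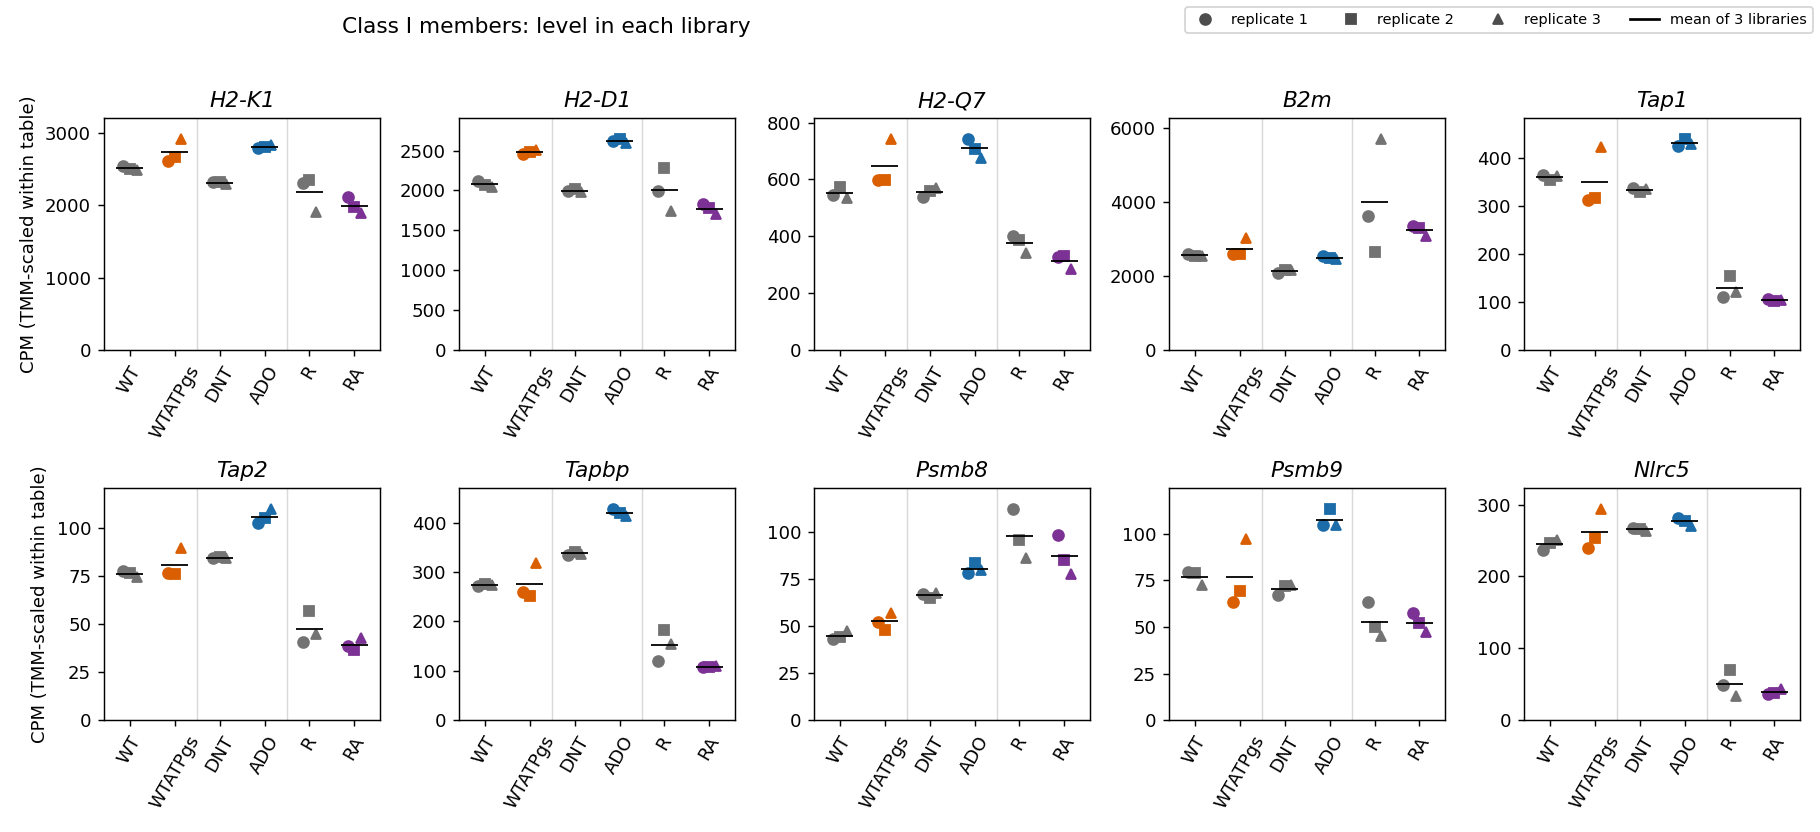
Level of each class I member in each of the 18 libraries, in TMM-scaled CPM (linear axis from 0) for the 6 groups, with symbols for replicates and a bar at the mean of 3 libraries. ADO libraries sit above DNT libraries for all 10 genes, WTATPgs replicate 3 is the highest of its group for all 10, and R libraries are spread widely.

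Across tables, the ADO mean was the highest of the 6 group means for 8 of the 10 members, all but B2m and Psmb8. R and RA had the lowest means for 7 members (H2-K1, H2-Q7, Tap1, Tap2, Tapbp, Psmb9 and Nlrc5) and the highest for B2m and Psmb8. Nlrc5, the transactivator of class I genes, showed the widest gap, with 33.3 to 70.1 CPM over the R and RA libraries and 237 to 293 CPM in the other 4 groups. Neighbours in these orders often overlapped: for H2-K1, ADO with WTATPgs, DNT with R and R with RA, and for Nlrc5, DNT with WTATPgs, WTATPgs with WT and R with RA. Tables were normalised separately and each holds its own groups, so inhibitor and table cannot be told apart in these levels, and no test was made.

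The adenosine comparison asks what the nucleoside does to these cells without the inhibitor. All 10 members rose, by a median of 0.32 on the log2 scale (range 0.06 to 0.61, n = 3 libraries a group), against a median of 0.00 over all genes. By edgeR's quasi-likelihood test with Benjamini-Hochberg adjustment over all 14512 genes tested, 25.5% of those genes were higher and 24.6% lower (50.2% in all) at an adjusted p below 0.05. Psmb9 rose most, 1.53-fold, and Nlrc5 least, 1.04-fold. All 3 ADO libraries lay above all 3 DNT libraries for each of the 10 members, as they did for 28.2% of all genes tested, with 27.5% entirely below.

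Among the heavy chains, H2-K1 had 2323, 2329 and 2294 CPM in DNT libraries and 2789, 2815 and 2831 CPM in ADO libraries. H2-D1 went from 1987, 2015 and 1980.3 CPM to 2615, 2642 and 2595 CPM. H2-Q7 had 538, 559 and 569 CPM without and 741, 709 and 677 CPM with adenosine. Each heavy chain was thus higher in every ADO library, and the distance between groups exceeded the spread within them. The log2 fold change was 0.28 ± 0.01 (SE, adjusted p = 3.5e-22) for H2-K1, a 1.21-fold rise. For H2-D1 it was 0.39 ± 0.01 (adjusted p = 1.07e-27), or 1.31-fold. For H2-Q7 it was 0.35 ± 0.03 (adjusted p = 5.31e-06), or 1.28-fold. B2m, the invariant light chain, had a smaller log2 fold change than the heavy chains, a difference that was not tested. Its levels were 2093, 2162 and 2151 CPM in DNT and 2534, 2473 and 2457 CPM in ADO. That is a log2 fold change of 0.22 ± 0.02 (SE, adjusted p = 4.5e-17), with no overlap between groups.

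The peptide transporter subunits Tap1 and Tap2 and the loading factor tapasin (Tapbp) moved by like amounts. Tap1 had 337, 331 and 337 CPM in DNT and 425, 439.7 and 430.4 CPM in ADO. Tap2 had 84.2, 85.0 and 84.1 CPM against 103, 105 and 109 CPM. Tapbp had 335, 342 and 336 CPM against 427, 421 and 414 CPM. In all 3 genes the ADO libraries were the higher ones and the groups were apart. The log2 fold changes were 0.37 ± 0.02 for Tap1 (SE, adjusted p = 2.4e-20), 0.32 ± 0.03 for Tap2 (adjusted p = 2.64e-11) and 0.32 ± 0.02 for Tapbp (adjusted p = 4.95e-18). Tap1 per kb of exon was 2.77, 2.69 and 2.77 times Tap2 in DNT and 2.87, 2.89 and 2.71 times in ADO, ranges that overlap.

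The catalytic immunoproteasome subunits Psmb8 (LMP7) and Psmb9 (LMP2) replace constitutive subunits of the proteasome. Psmb9 had 67.2, 71.8 and 72.5 CPM in DNT and 105, 113 and 105 CPM in ADO. Psmb8 had 66.9, 65.1 and 67.4 CPM and 77.9, 83.5 and 79.6 CPM. Both were higher in each ADO library than in any DNT library. The log2 fold change was 0.61 ± 0.04 for Psmb9 (SE, adjusted p = 3.09e-19) and 0.27 ± 0.04 for Psmb8 (adjusted p = 4.6e-08). Nlrc5 had 268, 266 and 263 CPM in DNT and 282, 278 and 270.2 CPM in ADO, the smallest gap between groups among the members. Its log2 fold change was 0.06 ± 0.02 (SE, adjusted p = 0.0352). This call ended without DNT replicate 2 (adjusted p = 0.0753), DNT replicate 3 (0.109), ADO replicate 1 (0.146) or ADO replicate 2 (0.0638), and with DESeq2 (0.0971). The other 9 members kept call and direction in all 14 alternatives run.

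**Figure D2:**
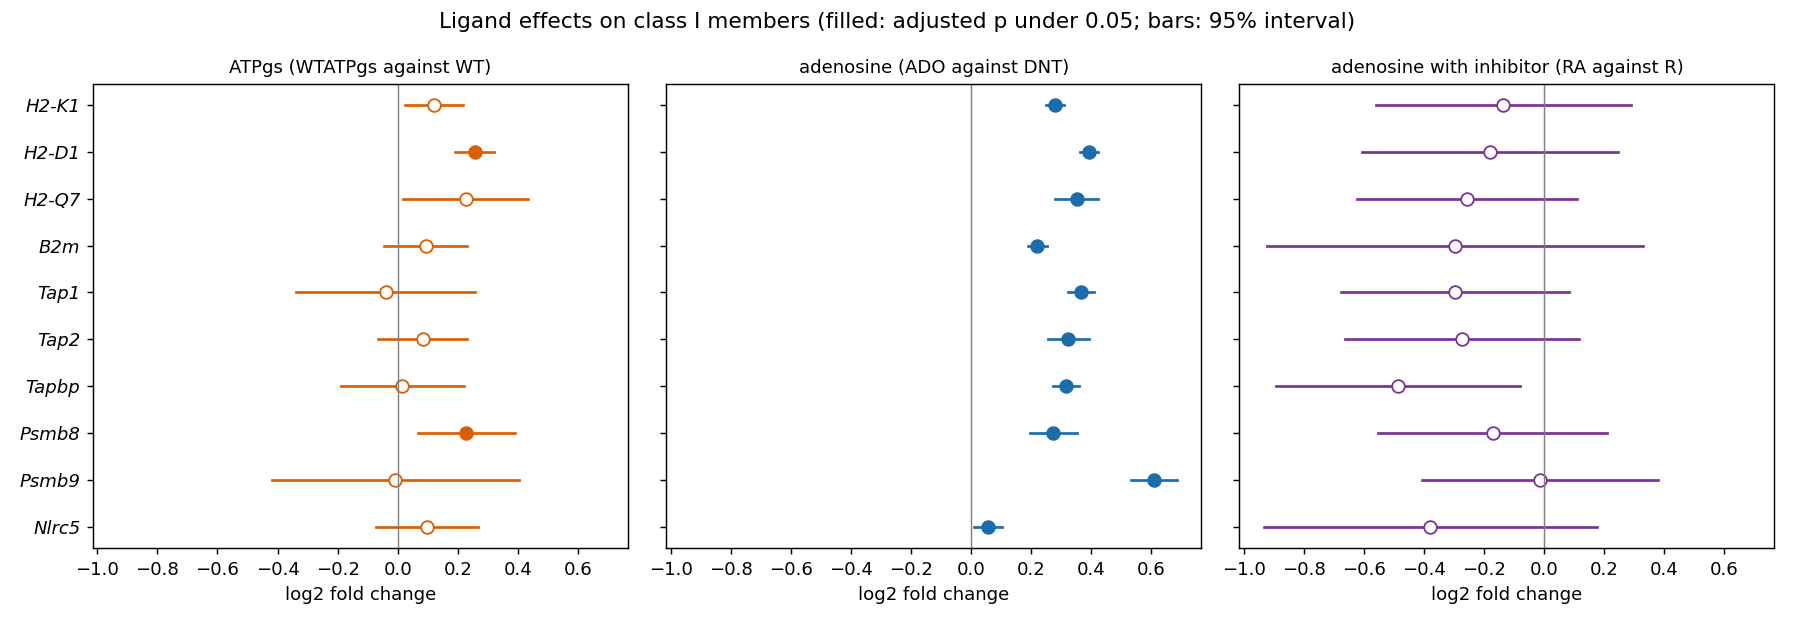
Log2 fold change of each member for ATPgs (WTATPgs against WT), adenosine (ADO against DNT) and adenosine with the A2aR inhibitor (RA against R), with 95% intervals over 3 libraries a group and filled points where edgeR's adjusted p was below 0.05. All 10 points are filled and right of 0 under adenosine, H2-D1 and Psmb8 are filled under ATPgs, and with the inhibitor all 10 are open and left of 0.

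Among the summed markers of other cells, only those of macrophages, monocytes and neutrophils lay apart between DNT and ADO. Sums for B cell, dendritic and MHC class II genes overlapped. Single markers moved both ways: the class II genes H2-Aa, H2-Ab1 and H2-Eb1 lay above DNT in all ADO libraries and Cd74 below. Among dendritic markers Itgax and Xcr1 lay above and Zbtb46 below, and of the B cell markers Cr2 lay above. Of macrophage, monocyte and neutrophil markers, Cd14, Cd68 and Lyz2 lay above and Fcgr1 below. Over all genes tested, 28.2% lay above and 27.5% below. The 12 markers of macrophages, monocytes and neutrophils summed to 11.1 to 12.8 CPM in DNT and 17 to 21.1 CPM in ADO, with Elane at 0 in all 6 libraries. The 10 B cell markers summed to 3.39 to 5.05 and 4.12 to 4.87 CPM, with Pax5 at 0 in DNT, and the 5 dendritic markers to 36.7 to 38.8 and 35.5 to 37.2 CPM. The 7 MHC class II genes summed to 32.2 to 38.8 and 37.2 to 40.0 CPM. The T cell markers summed to 3531 to 3568 CPM in DNT and 3744 to 3820 CPM in ADO. Their part in the class I rise was not tested. For scale, the 10 class I members together took 0.797% to 0.808% of all counts in DNT and 1.01% to 1.03% in ADO.

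Under ATPgs, 2 members passed the test, both higher: H2-D1 (1.19-fold) and Psmb8 (1.17-fold), and none passed as lower. Over the 15124 genes tested, 17.7% were higher and 19.4% lower (37.1% in all), so the members' share is near that background. The median log2 fold change of the 10 members was 0.09 (range −0.04 to 0.26), against 0.00 over all genes. Scaling by library size alone made all 10 values positive, with 4 called. It also moved the split of all called genes from 2678 higher and 2934 lower to 3226 higher and 2331 lower. The last 2 counts were 21.3% and 15.4% of genes tested.

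H2-D1 had 2123, 2069 and 2048 CPM in WT and 2453, 2488 and 2509 CPM in WTATPgs. H2-K1 had 2552, 2507 and 2494 CPM and 2619.7, 2667 and 2916 CPM. H2-Q7 had 545, 574 and 536 CPM and 598, 598 and 741 CPM. For all 3 heavy chains the WTATPgs libraries lay above the WT libraries, by a wide margin only for H2-D1, and replicate 3 was the highest library. With Psmb8 this made 4 of 10 members entirely above WT, beside 24.4% of all genes tested. The log2 fold change was 0.26 ± 0.03 for H2-D1 (SE, adjusted p = 0.000271). It was 0.12 ± 0.04 for H2-K1 (adjusted p = 0.0551) and 0.23 ± 0.09 for H2-Q7 (adjusted p = 0.086). H2-K1 nonetheless passed in 6 of 14 alternatives, among them the filter of 1 CPM (adjusted p = 0.0341) and no filter (0.044), and H2-Q7 in 4 of 14, among them DESeq2 (0.0214). H2-D1 kept its call in all 14 alternatives, with adjusted p up to 0.00509. Light chain levels overlapped, with B2m at 2602, 2550.3 and 2526 CPM in WT and 2585, 2583 and 3018 CPM in WTATPgs (log2 fold change 0.09 ± 0.06 SE, adjusted p = 0.268).

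Psmb8 had 42.9, 44.3 and 47.1 CPM in WT and 52.3, 47.8 and 57.1 CPM in WTATPgs, without overlap (log2 fold change 0.23 ± 0.07 SE, adjusted p = 0.0335). Its call ended without WT replicate 1 (adjusted p = 0.141), WT replicate 2 (0.12), WT replicate 3 (0.0602) or WTATPgs replicate 1 (0.0784). For the transport and remaining genes WTATPgs replicate 3 parted from the other 2 libraries. Tap1 had 365, 355 and 363 CPM in WT and 313, 317 and 423 CPM in WTATPgs. Psmb9 had 79.7, 79.1 and 72.5 CPM and 63.5, 69.2 and 97.0 CPM. Replicates 1 and 2 were thus below every WT library and replicate 3 above them in both genes of this divergent pair. Tapbp showed the same split, with 273, 275 and 273 CPM in WT and 260.2, 251 and 319 CPM in WTATPgs. For Tap2 the values were 77.6, 76.3 and 74.5 CPM and 76.6, 76.0 and 89.2 CPM. Nlrc5 had 237, 247 and 251 CPM and 239, 253 and 293 CPM, an overlap of the groups as for Tap2. None of these 5 passed the test: log2 fold changes were −0.04 ± 0.12 (SE) for Tap1, −0.01 ± 0.17 for Psmb9, 0.02 ± 0.09 for Tapbp, 0.08 ± 0.07 for Tap2 and 0.10 ± 0.07 for Nlrc5. The 95% intervals were wide, −0.34 to 0.26 for Tap1 and −0.42 to 0.40 for Psmb9.

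**Figure D3:**
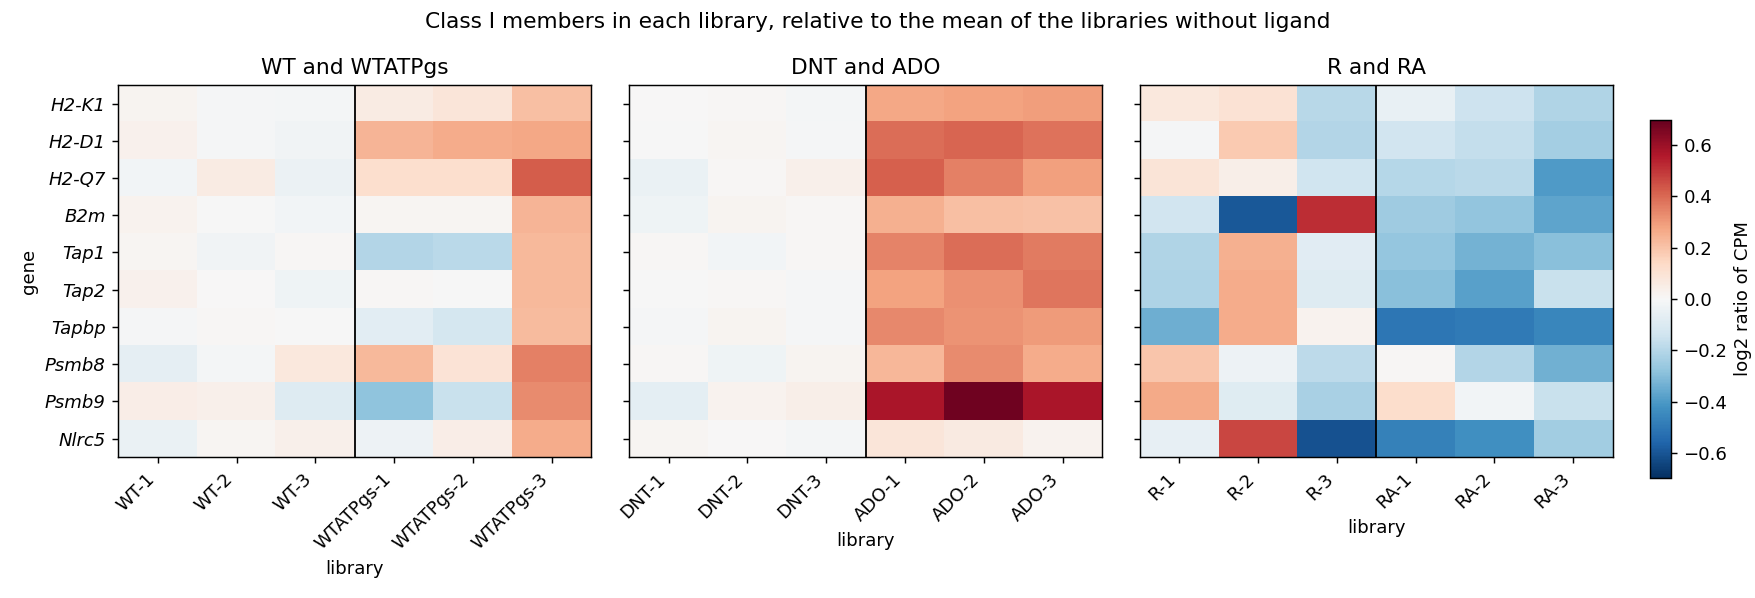
Log2 ratio of each member's CPM to the mean of the 3 libraries without ligand of its own table, by library, as a colour scale from −0.7 (blue) to 0.7 (red), with a line between libraries without and with ligand. ADO columns lie above 0 for all 10 genes, faintly so for Nlrc5, WTATPgs replicate 3 is red where replicates 1 and 2 are blue for Tap1, Tapbp and Psmb9, and the R columns differ from each other.

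Set against the WT mean, the median of the 10 members on the log2 scale was 0.01, 0.03 and 0.25 in WTATPgs replicates 1, 2 and 3. Of the 10, 6 lay above that mean in replicate 1, 6 in replicate 2 and 10 in replicate 3. Without replicate 3, 4 members were called higher and 3 lower. Calls over all genes rose too, to 26.9% higher and 26.9% lower of 15568 tested, so the members' counts are near that background. Higher were H2-K1 (log2 fold change 0.07, adjusted p = 0.000243), H2-D1 (0.24, 6.18e-19), H2-Q7 (0.11, 6.4e-05) and Psmb8 (0.16, 0.0076). Lower were Tap1 (−0.20, adjusted p = 2.06e-10), Tapbp (−0.10, 0.000516) and Psmb9 (−0.22, 3.26e-05). In that fit the 3 heavy chains passed upward and Tap1 and Tapbp downward. Replicate 3 also differed in the sums of macrophage, monocyte and neutrophil markers and of MHC class II genes. The macrophage, monocyte and neutrophil markers summed to 40.0 to 45 CPM in WT and to 197, 203 and 46.3 CPM in WTATPgs replicates 1, 2 and 3. MHC class II genes summed to 82.9 to 93.7 CPM in WT and to 141, 134 and 54.2 CPM. For B cell markers the sums were 16.4 to 18.3 CPM in WT and 28.9, 30.3 and 33.6 CPM in WTATPgs replicates 1, 2 and 3. Dendritic markers summed to 39.4 to 42.3 CPM in WT and to 42.4, 42.2 and 41.6 CPM, so replicate 3 was close to the others there. None of these markers was at 0 in all libraries of WT or WTATPgs. Their part in the class I values was not tested.

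With the A2aR inhibitor present, no member passed the test for adenosine in either direction. The background there was low: of 12873 genes tested, 0.287% were higher and 0.855% lower (1.14% in all). In edgeR's test 1 of the 10, Tapbp, had an unadjusted p below 0.05, and DESeq2 also called no member. All 10 log2 fold changes were negative, with a median of −0.27 (range −0.49 to −0.01), against −0.04 over all genes. Scaling by library size moved the median of all genes to 0.09 and that of the members to −0.13, where Psmb9 turned positive.

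Each comparison of RA with R met wide spread among R libraries, whose coefficient of variation was 8.25% to 39.1% over the members. H2-K1 had 2312, 2353 and 1915 CPM in R and 2115, 1979.8 and 1894 CPM in RA. H2-D1 had 1994, 2282 and 1744 CPM and 1827, 1786 and 1702 CPM. H2-Q7 had 400.2, 387 and 341 CPM and 328, 329.9 and 286 CPM. Of the heavy chains only H2-Q7 was lower in all RA libraries than in all R libraries, as were Tap1 and Tapbp among the other members and 10.7% of all genes tested. The log2 fold changes were −0.14 ± 0.19 (SE) for H2-K1, −0.18 ± 0.19 for H2-D1 and −0.26 ± 0.16 for H2-Q7. B2m had 3628, 2639 and 5693 CPM in R and 3359, 3293 and 3082 CPM in RA (−0.30 ± 0.28 SE). Its order over R replicates was that of the ribosomal share (12.8%, 10.4% and 15.8%) and of the mitochondrially encoded share (3.66%, 3.14% and 5.47%). H2-K1, H2-D1 and Nlrc5 had the reverse order over the R replicates, and the remaining members had neither order. The part of these shares was not tested.

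Tap1 had 111, 153 and 122 CPM in R and 107, 102 and 105 CPM in RA. Tapbp had 120.0, 182 and 154 CPM and 107, 108 and 111 CPM. Both were lower in all RA libraries, although R replicate 1 lay close to RA. Tap2 overlapped, with 40.8, 56.8 and 44.5 CPM in R and 38.7, 36.4 and 42.5 CPM in RA. The log2 fold changes were −0.30 ± 0.17 (SE) for Tap1, −0.49 ± 0.18 for Tapbp (adjusted p = 0.29) and −0.27 ± 0.17 for Tap2. Psmb8 had 112, 95.6 and 86.3 CPM and 98.4, 85.0 and 77.6 CPM, and Psmb9 had 63.4, 49.8 and 45.2 CPM and 57.4, 52.1 and 47.3 CPM. Both overlapped, with log2 fold changes of −0.17 ± 0.17 (SE) and −0.01 ± 0.18. The 95% interval for Psmb9 was −0.41 to 0.38. Nlrc5 had 48.8, 70.1 and 33.3 CPM in R and 36.6, 37.7 and 42.9 CPM in RA (−0.38 ± 0.25 SE, adjusted p = 0.625). Without R replicate 3, its lowest R library, Nlrc5 was called lower (log2 fold change −0.61, adjusted p = 0.0189), and the count of all genes called rose from 147 to 1719.

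Among markers of other cells, macrophage, monocyte and neutrophil genes summed to 13.8 to 16.5 CPM in R and 16.8 to 18.6 CPM in RA. B cell genes summed to 1.78 to 2.46 and 1.22 to 1.76 CPM, with Cd22 and Pax5 at 0 in both groups. Dendritic markers summed to 16.9 to 22.6 and 17.8 to 20.4 CPM with Clec9a at 0 in both, and class II genes to 45.7 to 64.3 and 48.9 to 53.4 CPM. Their part was not tested.

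The adenosine effect with the inhibitor was then compared with that without it, as a contrast of 4 group means over 12 libraries. With the inhibitor the effect was lower for 4 members, Tapbp, Tap1, Psmb9 and H2-Q7. Of the 14965 genes tested, 0.909% had a higher and 3.14% a lower effect (4.05% in all). All 10 differences were negative, with a median of −0.60 (range −0.82 to −0.43), against −0.06 over all genes. Tapbp differed by −0.82 ± 0.18 on the log2 scale (SE, adjusted p = 0.0256), Tap1 by −0.68 ± 0.16 (0.0289), Psmb9 by −0.63 ± 0.16 (0.0435) and H2-Q7 by −0.62 ± 0.14 (0.0234). H2-D1 (−0.58 ± 0.16, adjusted p = 0.0582) and Tap2 (−0.62 ± 0.17, 0.0589) came close to the threshold. H2-K1 (−0.43 ± 0.15), Psmb8 (−0.46 ± 0.15), B2m (−0.55 ± 0.33) and Nlrc5 (−0.44 ± 0.25) did not pass. For Psmb9 the log2 fold change was 0.61 without and −0.01 with the inhibitor.

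These calls depend on the scaling and on the libraries used. All 4 ended with scaling by library size alone (adjusted p from 0.145 to 0.293) and in the fit with a replicate block, which ties libraries by number (0.103 to 0.149). None of the 4 was kept when any single DNT, ADO or RA library was left out (adjusted p from 0.0528 to 0.133), although the differences themselves stayed between −0.56 and −0.84. Without R replicate 1, Psmb9 lost its call (adjusted p = 0.0544) and Tap2 gained one. Without R replicate 2, 7 members were called, and without R replicate 3, 9 were, all but B2m. All genes called rose as well, from 606 to 1468 and 3051, and those with a lower effect from 3.14% to 4.7% and 9.18% of genes tested. With the inhibitor, adenosine and the control came from a table of their own, so inhibitor and table cannot be told apart in the difference either.

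**Figure D4:**
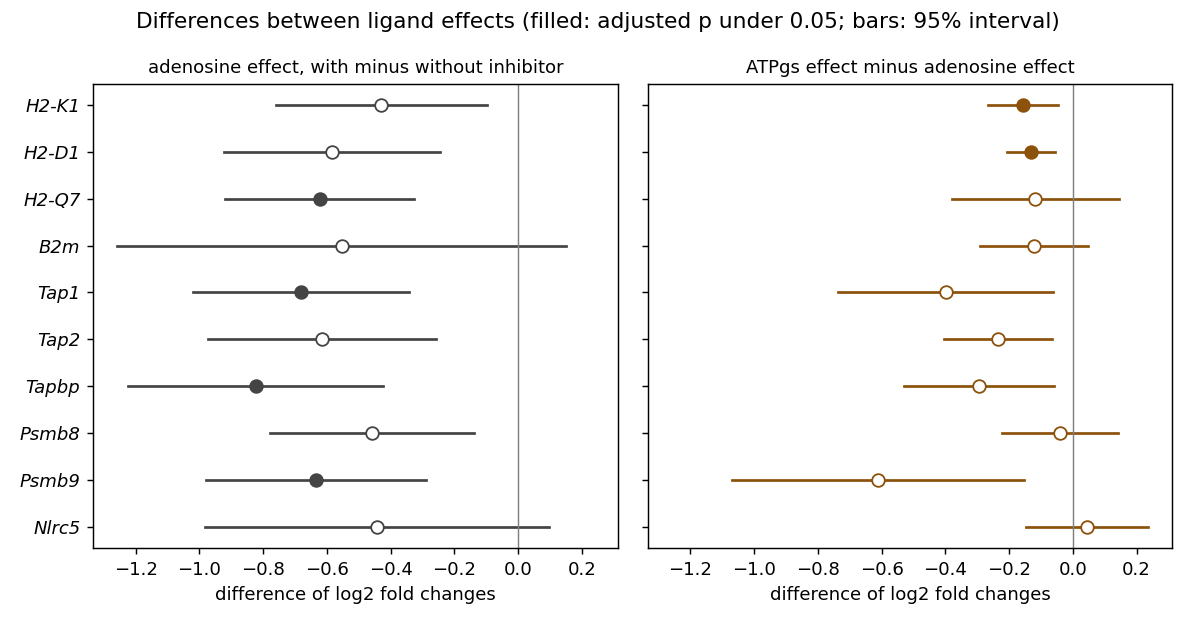
Differences between log2 fold changes for each member, with 95% intervals and filled points where edgeR's adjusted p was below 0.05: adenosine with minus without the A2aR inhibitor, and ATPgs minus adenosine. H2-Q7, Tap1, Tapbp and Psmb9 are filled in the first and H2-K1 and H2-D1 in the second, where Nlrc5 alone lies right of 0.

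ATPgs and adenosine, at the same concentration and time, were compared in the same way across their own tables. The effect of ATPgs on H2-D1 and H2-K1 was lower than that of adenosine. Over the 15788 genes tested, 8.13% had a higher and 9.12% a lower effect with ATPgs (17.3% in all). The difference was −0.13 ± 0.04 for H2-D1 (SE, adjusted p = 0.0188) and −0.16 ± 0.05 for H2-K1 (adjusted p = 0.0489). With every library kept, H2-K1 lost its call under relative log expression (RLE) factors (adjusted p = 0.0502), DESeq2 (0.0547), limma-voom (0.0579) and the replicate block (0.086), and H2-D1 under the replicate block (0.073). H2-K1 also lost it without any of WT replicates 1 to 3, WTATPgs replicates 1 or 2, or any DNT or ADO library (adjusted p = 0.0785 to 0.117). H2-D1 also lost it without WT replicate 1 (0.0609) or ADO replicate 2 (0.0519). Psmb9 had the greatest difference of the 10, −0.61 ± 0.20, without passing (adjusted p = 0.0726, 95% interval −1.07 to −0.15). Tap1 (−0.40 ± 0.15), Tapbp (−0.30 ± 0.11) and Tap2 (−0.24 ± 0.08) also missed the threshold. Without WTATPgs replicate 3, 8 members were called lower, all but Psmb8 and Nlrc5, with Psmb9 at −0.83 and Tap1 at −0.57. In that fit the genes called lower rose from 1440 to 3058, or 18.8% of 16248 tested. For Nlrc5 the interval of the difference ran from −0.15 to 0.24. All differences with adenosine share the same DNT and ADO libraries.

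Ratios between partner genes do not depend on how libraries are scaled. They were picked after the values had been seen and are given per kb of exon without a test. Psmb9 relative to Psmb6, the constitutive subunit that it replaces, was 0.195, 0.205 and 0.212 in DNT and 0.326, 0.326 and 0.302 in ADO. Psmb8 relative to its counterpart Psmb5 was 0.356, 0.337 and 0.352 in DNT and 0.416, 0.432 and 0.422 in ADO. For Psmb10 and Psmb7, the remaining pair, the ratio went from 1.68, 1.67 and 1.51 to 2.35, 2.42 and 2.56. In all 3 pairs the ADO libraries lay above the DNT libraries. The denominator Psmb7 itself fell under adenosine (log2 fold change −0.20 ± 0.03 SE). Under ATPgs, Psmb8 to Psmb5 was 0.238, 0.252 and 0.258 in WT and 0.322, 0.305 and 0.354 in WTATPgs, and Psmb10 to Psmb7 went from 1.5, 1.53 and 1.49 to 1.86, 1.92 and 1.94. Here Psmb7 fell (log2 fold change −0.35 ± 0.04 SE) while Psmb10 did not pass (−0.02 ± 0.05), so the change in that ratio goes with its denominator. Psmb5 also fell under ATPgs (−0.16 ± 0.05). Psmb9 to Psmb6 overlapped, at 0.272, 0.278 and 0.261 in WT and 0.262, 0.274 and 0.377 in WTATPgs. With the inhibitor all 3 overlapped between R and RA, Psmb9 to Psmb6 lying between 0.0646 and 0.0886 in all 6 libraries. B2m relative to the sum of H2-K1 and H2-D1 was 1.56, 1.60 and 1.61 in DNT and 1.5, 1.45 and 1.45 with adenosine, lower in all ADO libraries than in any DNT library. Its R values were 2.70, 1.82 and 4.99, with 2.73, 2.80 and 2.75 in RA.

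Wider lists of the pathway, 3 in all, put these values in context, with p-values adjusted over all genes tested. Other class I heavy chains and class I-like genes numbered 18, of which 13 were tested in each comparison and 17 were in the tables. Adenosine raised 8 and lowered 1, with a median log2 fold change of 0.23, beside 25.5% higher and 24.6% lower over all genes tested. The smallest p-values were those of H2-Q4 (0.46 ± 0.03 SE), H2-Q6 (0.30 ± 0.02), H2-Q5 (0.23 ± 0.03) and H2-T23 (0.20 ± 0.02), the gene of Qa-1, a ligand of NKG2 receptors. H2-T24 fell by 0.15 ± 0.05. ATPgs raised H2-Q6 (0.58 ± 0.04), H2-Q5 (0.40 ± 0.05) and H2-Q4 (0.38 ± 0.08), lowered H2-T24 (−0.75 ± 0.08) and left a list median of 0.07. Over all genes tested, 17.7% were higher and 19.4% lower under ATPgs. With the inhibitor none of 13 passed, beside 1.14% of all genes tested. Hfe had the smallest p there (2.05 ± 0.51, adjusted p = 0.103) at means of 0.17 CPM in R and 0.70 CPM in RA. It was followed by H2-Q5 (−0.31 ± 0.15, adjusted p = 0.461), Cd1d1 (−0.25 ± 0.23) and H2-Q10 (0.18 ± 0.19). These Q-region genes share exon sequence with H2-Q7, so their counts are uncertain in the same way.

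**Figure D5:**
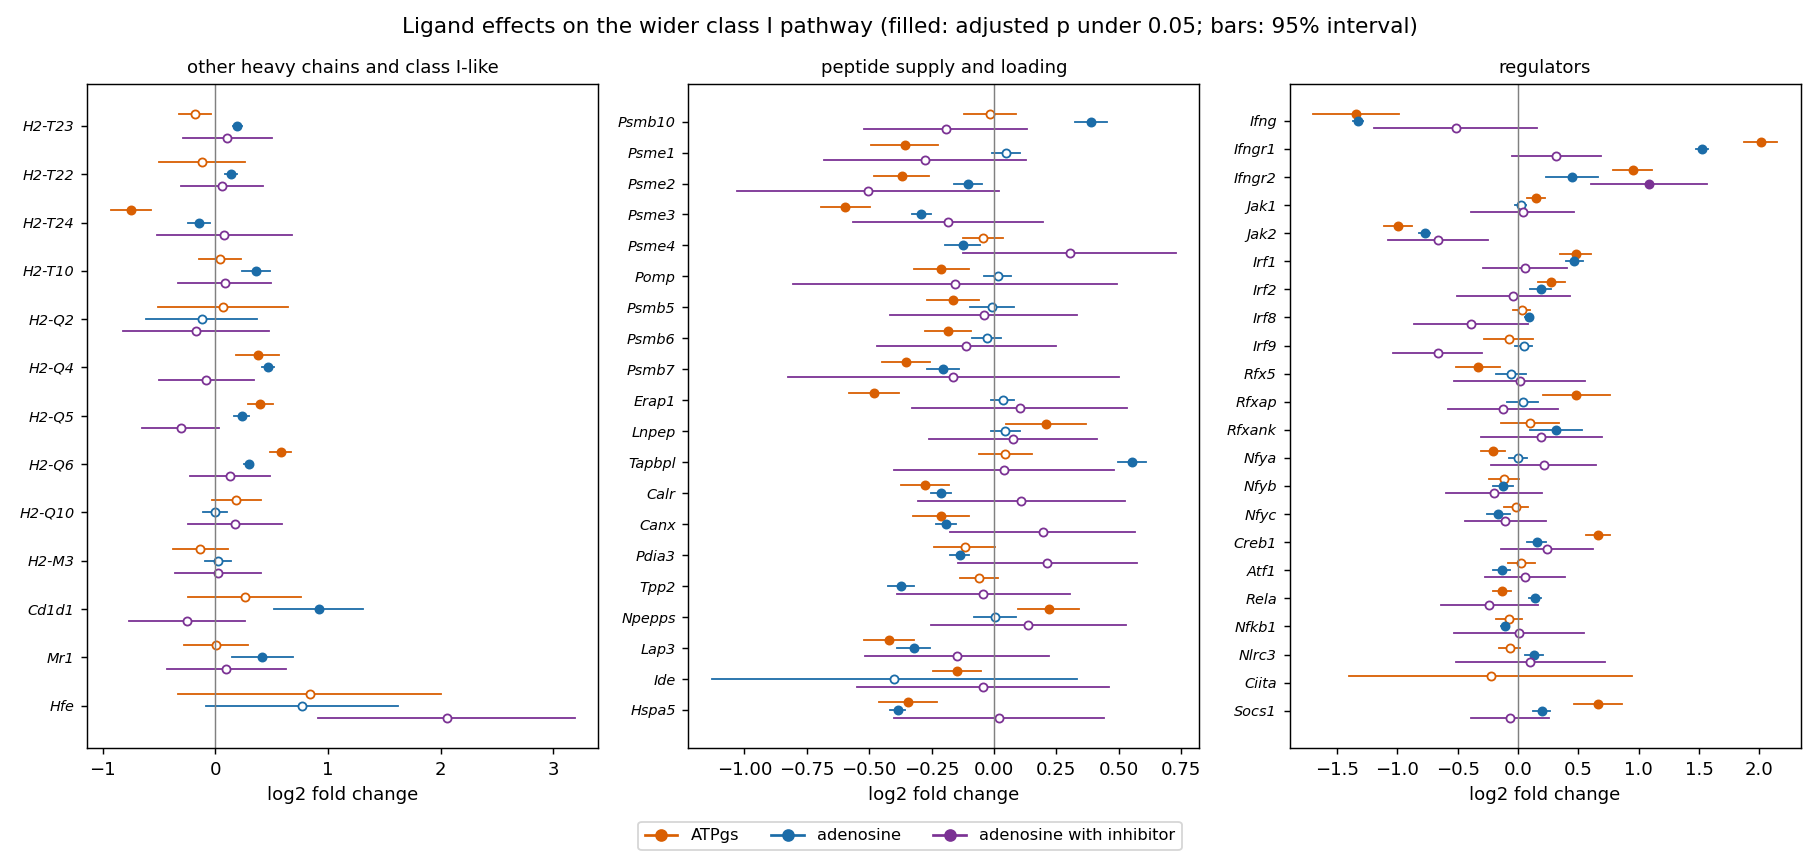
Log2 fold changes with 95% intervals for other heavy chains and class I-like genes, peptide supply and loading genes, and regulators (1 of them not shown), under ATPgs, adenosine and adenosine with the A2aR inhibitor, filled where edgeR's adjusted p was below 0.05. Under adenosine most heavy chain points are filled and right of 0 while most filled supply points lie left of 0 except Psmb10 and Tapbpl, and Ifngr1 rises and Ifng falls under both ligands.

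Peptide supply and loading genes, 20 in number and all tested, mostly moved the other way from the members. Adenosine lowered 10 and raised 2, with a median of −0.11, beside 24.6% lower and 25.5% higher over all genes tested. Those raised were Tapbpl (0.55 ± 0.03 SE), a tapasin relative that edits peptides, and Psmb10 (0.39 ± 0.03), the remaining immunoproteasome subunit. Among those lowered were the chaperone gene Hspa5 (−0.39 ± 0.01), the cytosolic peptidase Tpp2 (−0.37 ± 0.03) and the proteasome activator Psme3 (−0.29 ± 0.02). ATPgs lowered 13 and raised 2, with a median of −0.20, beside 19.4% lower and 17.7% higher over all genes tested. It lowered Psme3 (−0.60 ± 0.04), the peptide-trimming enzyme Erap1 (−0.48 ± 0.04), the aminopeptidase Lap3 (−0.42 ± 0.04) and the constitutive proteasome gene Psmb7 (−0.35 ± 0.04), and raised the aminopeptidases Npepps (0.22 ± 0.05) and Lnpep (0.21 ± 0.07). With the inhibitor none of 20 passed, beside 1.14% of all genes tested. The smallest p was that of Psme2 (−0.50 ± 0.23, adjusted p = 0.425), followed by Psme4 (0.30 ± 0.19), Psme1 (−0.28 ± 0.18) and Pdia3 (0.21 ± 0.16). The adenosine effect on Psmb10 was lower with the inhibitor than without (−0.60 ± 0.13, adjusted p = 0.0191), the only gene of the 20 to pass that test. Over all genes tested, 3.14% had a lower effect, so this share is near that background. The call was not checked in the alternative fits.

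Of 23 genes known to regulate class I, adenosine raised 11 and lowered 6 of the 22 tested. Over all genes tested, 25.5% were higher and 24.6% lower, so the share lowered is near that background. The interferon gamma receptor chain Ifngr1 rose by 1.52 ± 0.03 on the log2 scale (SE) and the interferon-responsive factor Irf1 by 0.47 ± 0.03. The cytokine gene Ifng fell by 1.32 ± 0.02 and the receptor-bound kinase Jak2 by 0.77 ± 0.02. Also lowered, by less, were Nfkb1 (−0.11 ± 0.02), Atf1 (−0.14 ± 0.03) and the CCAAT-binding subunits Nfyc (−0.16 ± 0.05) and Nfyb (−0.12 ± 0.04). ATPgs raised 8 and lowered 5 of 23, beside 17.7% higher and 19.4% lower over all genes tested, so the share lowered is near that background. Values were 2.01 ± 0.06 for Ifngr1, 0.95 ± 0.07 for Ifngr2, 0.66 ± 0.04 for Creb1, −0.99 ± 0.05 for Jak2 and −1.34 ± 0.14 for Ifng. The other 3 lowered were Rfx5 (−0.33 ± 0.08), Nfya (−0.21 ± 0.04) and the NF-kappaB subunit Rela (−0.13 ± 0.03). With the inhibitor 1 of 22 passed, Ifngr2 (1.08 ± 0.21, adjusted p = 0.0463), beside 0.287% higher and 0.855% lower over all genes tested. Next by p were Irf9 (−0.66 ± 0.16, adjusted p = 0.102), Jak2 (−0.66 ± 0.19) and Ifngr1 (0.32 ± 0.17), none of which passed. The adenosine effect on Ifngr1 (−1.22 ± 0.14, adjusted p = 0.000358) and Irf9 (−0.72 ± 0.13, adjusted p = 0.00802) was lower with the inhibitor, as it was for 3.14% of all genes tested. These calls were not checked in the alternative fits. Whether any of these regulators had a part in the class I values was not tested.

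The genes most like the members over the 3 ligand comparisons were sought among 8709 other genes with a mean of at least 5 CPM. Likeness was the root mean square distance of a gene's 3 log2 fold changes from the member medians of 0.09, 0.32 and −0.27. The 5 nearest were Znfx1 (0.00919), Tagln2 (0.0134), Anapc11 (0.0245), Ccdc184 (0.0262) and Tmem184b (0.0286). Znfx1 had log2 fold changes of 0.10, 0.33 and −0.28. The measure rests on 3 values a gene and was given no test.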

How the data were processed

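Counts per Ensembl gene were deposited by the authors in 3 tables of 6 libraries, without normalisation. The reads had been aligned with HISAT2 2.1.0 to GRCm38, per the submitters' processing notes, from total RNA taken with Trizol and Illumina libraries, per the labels' protocols. Not given in the sources used here are the counting tool, the annotation release, strandedness and mouse strain. Gene names and positions were read from GENCODE M21 (matching 99.7%, 99.8% and 99.8% of the listed identifiers), and promoters from RefSeq GRCm38.p6.

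Groups came from the labels. The test was edgeR's robust quasi-likelihood F test (version 4.0.16, R 4.3.3) with TMM scaling and the filterByExpr filter, two-sided. Adjustment was by Benjamini-Hochberg over all genes tested, with a threshold of 0.05. Ligand effects were fitted on 6 libraries of a table, differences between effects on 12. The SE is the log2 fold change divided by the square root of F. Same-numbered libraries did not deviate together (correlations −0.20 to 0.05), so numbers were not used as pairs. Alternatives were DESeq2 1.42.0, limma-voom (limma 3.58.1), relative log expression (RLE) factors, library size, no filter, at least 1 CPM in 3 libraries, a replicate block and leaving out each library. Limma-voom with group weights was chosen after seeing the data. The scripts were tested on simulated data. Figures used matplotlib 3.10.9 in Python 3.11.15.

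The members, lists and tests were chosen with earlier results of these data known. All 10 members are named, and of each wider list the 4 genes with the smallest p in a ligand comparison and those passing against the direction of most of the list. Genes named from the wider lists in difference tests, and the partner ratios, were chosen after their values were seen. Single values of some listed genes are not reported here.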

Additional observations from a re-analysis of the deposited data

Results flagged for a closer look

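Differences between effects were singled out where the contrast itself passed edgeR's test. The adenosine effect was lower with the A2aR inhibitor than without it for Tapbp (−0.82 ± 0.18 SE on the log2 scale, adjusted p = 0.0256), Tap1 (−0.68 ± 0.16, 0.0289), Psmb9 (−0.63 ± 0.16, 0.0435) and H2-Q7 (−0.62 ± 0.14, 0.0234). All 4 calls ended with library size alone (adjusted p from 0.145 to 0.293), with the replicate block (0.103 to 0.149) and without any single DNT, ADO or RA library (0.0528 to 0.133). The ATPgs effect was lower than the adenosine effect for H2-K1 (−0.16 ± 0.05, adjusted p = 0.0489) and H2-D1 (−0.13 ± 0.04, 0.0188). H2-K1 passed in 5 of 20 alternatives and H2-D1 in 17 of 20. The contrasts share the DNT and ADO libraries, and each also differs between count tables. With 3 libraries a group, no single library was tested as an outlier.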

How the results depend on the processing

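Among the 10 members, the 9 adenosine calls other than Nlrc5 and the ATPgs call of H2-D1 held in all 14 alternatives of those comparisons. Nlrc5 lost its adenosine call in 7 of 14, among them RLE factors (adjusted p = 0.0506) and no filter (0.0509). Leaving out single libraries gave 9 to 10 members higher under adenosine, beside 22.8% to 23.8% of all genes tested. Under ATPgs it gave 1 to 4 higher and 0 to 3 lower, and 3885 to 8381 genes called of 5612 in the full comparison. Members higher under ATPgs numbered 4 with library size, 4 with group weights and 3 each with no filter, the filter of 1 CPM and DESeq2. Genes higher in those settings were 21.3%, 17.5%, 9.62%, 20.3% and 16.2% of all tested, in that order. With the inhibitor, 147 genes were called in all, against 73 with library size, 485 without a filter, 533 with DESeq2 and 36 to 1719 without single libraries, with 0 to 1 member lower. That member was called without R replicate 3, where 7.54% of all genes tested were lower. For adenosine with against without inhibitor, 606 genes became 240 with library size, 1387 with DESeq2, 160 with the replicate block and 280 to 3051 without single libraries. Members lower there were 0 with library size, 2 without a filter, 8 with DESeq2, 0 with the replicate block and 0 to 9 without single libraries. Of all genes tested, 1.12%, 1.72%, 5.67% and 0.942% were lower in those settings, and 1.5% to 9.18% without single libraries. For ATPgs against adenosine, 2724 genes became 1943 to 5367 without single libraries. Members lower were 1 with RLE factors, 4 with library size, 5 without a filter, 4 with DESeq2, 4 with limma-voom, 6 with group weights, 0 with the replicate block and 0 to 8 without single libraries. Of all genes tested, 8.79%, 10.2%, 5.74%, 8.51%, 9.0%, 9.03% and 7.27% were lower in those settings. Without single libraries 6.32% to 18.8% were. The cause of these changes was not tested. Numbers do not pair these libraries, so the calls lost under the block are no measure of effect size.

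Some values near 0 changed sign. ATPgs values for Tap1 and Psmb9 became 0.00984 and 0.0409 with library size, and Psmb9 became 0.000348 with the filter of 1 CPM. With the inhibitor, Psmb9 became 0.0997 with library size and 0.0014 without a filter. Without single libraries, ATPgs values ran from −0.221 to 0.127 for Psmb9, −0.202 to 0.0529 for Tap1, −0.00165 to 0.141 for Tap2 and −0.104 to 0.0974 for Tapbp. With the inhibitor they ran from −0.114 to 0.139 for Psmb9 and −0.536 to 0.0498 for B2m. The ATPgs minus adenosine difference ran from −0.121 to 0.0256 for Psmb8 and −0.0602 to 0.112 for Nlrc5. The lowest count of a member in a library was 564.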
